A study of Mus musculus with 6 samples.

Results

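The transcripts described here are 10 genes by which hepatic stellate cells are commonly recognized: Lrat, Colec11, Hgf, Reln, Dcn, Ecm1, Pdgfrb, Rgs5, Des and Acta2. They were taken by symbol from the gene count table of a liver RNA sequencing experiment, and all 10 were among its 54532 genes. All 10 also passed the filter on low counts, which left 13377 genes. The livers came from 6 male C57BL/6J mice made insulin resistant (IR) by a high-fat diet, begun at 8 weeks of age and given for 6 weeks. After an overnight fast of 16 h, 3 mice were injected i.p. with insulin at 0.75 units/kg (IR insulin) and 3 received its vehicle, BSA (IR vehicle), 6 h before the liver was taken. All mice of both groups had the diet and the fast, and no chow-fed group was used here. Each library was 1 whole liver sample of 1 mouse, so hepatocytes supplied most of the RNA.

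Hepatic stellate cells are pericytes of the liver sinusoid. In the healthy liver they are quiescent and store retinyl esters in lipid droplets, and they supply growth factors and matrix proteins to the hepatocytes and endothelium beside them. After injury, under platelet-derived growth factor (PDGF) and transforming growth factor-β (TGF-β), they turn into contractile myofibroblasts that express α-smooth muscle actin and lay down collagen. The comparison of IR insulin with IR vehicle asks which liver transcripts still respond to insulin in insulin resistance.

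No stellate cell transcript passed a test for a difference between IR insulin and IR vehicle. By the quasi-likelihood test of edgeR, 0 of 10 had an adjusted p under 0.05 and 0 had an unadjusted p under 0.05. DESeq2 and voom gave 0 of 10 by either measure as well. Over all genes tested, 0 had an adjusted p under 0.05, and 383 (edgeR), 507 (DESeq2) and 213 (voom) passed the study's criteria before adjustment. No member passed the criteria of the study (log2 fold change of 0.35 or more in size, unadjusted p below 0.05), which 2.86% of all genes tested passed. For no member did the values of the 2 groups fall apart without overlap, as they did for 12.3% of all genes tested (6.25% higher and 6.04% lower with insulin). The median log2 fold change of the members was −0.074 (4 higher and 6 lower with insulin), beside −0.017 over all 13377 genes. This direction depended on the processing, and the median kept its sign in 9 of 14 alternatives. With voom 10 members were higher and 0 lower (median 0.26, beside 0.013 over all genes). Without vehicle replicate 2, 7 were higher and 3 lower (0.14), and without vehicle replicate 1, 3 were higher and 7 lower (−0.19).

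Vehicle replicate 2 stood apart from the other 5 libraries across the whole transcriptome. It had counts for 16470 genes, against 18389 to 18874 elsewhere, at a total of 19664368 counts within the range of 18449986 to 21827619. Its log2 deviation, taken against the median of the remaining libraries, fell by 1.16 for every 10 points of transcript GC content, whereas the slopes of the remaining libraries were −0.064 to 0.19. The stellate cell transcripts spanned a GC content of 39.9% for Hgf to 58.3% for Ecm1. Log2 fold changes below are therefore given with vehicle replicate 2 and, for several members and lists, without it. Levels, spreads between mice and likeness of profiles include it throughout.

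The sequences of 4 members illustrate this range of base composition. Each line holds 90 coding bases (build GRCm38, read 5′ to 3′ on the strand of the gene), taken inside 1 exon where the GC content came closest to that of the gene's longest protein-coding transcript. Capitals mark G and C. Dcn is shown from exon 2 (chr10:97483415-97483504, plus strand; 42.2% GC), Hgf from exon 3 (chr5:16561000-16561089, plus strand; 40.0%), Ecm1 from exon 7 (chr3:95736600-95736689, minus strand; 57.8%) and Des from exon 1 (chr1:75360702-75360791, plus strand; 56.7%).
Dcn: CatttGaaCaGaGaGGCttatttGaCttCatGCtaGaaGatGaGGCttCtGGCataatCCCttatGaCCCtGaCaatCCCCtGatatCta
Hgf: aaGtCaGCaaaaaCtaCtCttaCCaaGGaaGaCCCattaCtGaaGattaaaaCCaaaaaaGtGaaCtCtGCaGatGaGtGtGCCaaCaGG
Ecm1: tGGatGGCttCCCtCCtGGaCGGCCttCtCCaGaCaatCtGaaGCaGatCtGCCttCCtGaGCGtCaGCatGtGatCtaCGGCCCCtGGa
Des: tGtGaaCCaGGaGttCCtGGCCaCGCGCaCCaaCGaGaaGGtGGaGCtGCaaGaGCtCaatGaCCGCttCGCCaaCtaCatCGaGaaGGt

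Per kilobase of the longest protein-coding transcript, Dcn had the highest level of the 10, at 76.3 ± 17.1 CPM per kb (SD, n = 6 livers of both groups). CPM is the count scaled by library size and TMM factor. Ecm1 followed at 32.6 ± 17.3 CPM per kb, Colec11 at 14.2 ± 4.52 and Rgs5 at 7.40 ± 1.37. Lower levels were found for Lrat (2.84 ± 0.998), Hgf (2.07 ± 0.779), Reln (1.87 ± 0.408) and Des (1.21 ± 0.378). Pdgfrb (0.488 ± 0.208 CPM per kb) and Acta2 (0.372 ± 0.246) were lowest. Most neighbours kept this order in all 6 libraries. Hgf and Reln did not differ beyond their spread, with Hgf above Reln in 3 of 6 libraries. Pdgfrb was above Acta2 in 4 of 6 libraries, and Ecm1 was above Colec11 in 5, the exception being vehicle replicate 2.

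The summed level of the list was set beside that of markers of neighbouring mesenchymal cells. The summed level of the 10 stellate cell transcripts was 269.98 to 328.8 CPM in the vehicle and 210.3 to 361.7 CPM in the insulin libraries. Dcn alone was at 81.0 to 166 CPM and Ecm1 at 4.85 to 97.5 CPM. Such sums depend on which genes are listed, so they do not show which cells the transcripts came from. The sum of 10 portal fibroblast markers (Thy1, Eln, Fbln2 and others, all 10 detected) was 9.27 to 28.3 CPM in the vehicle and 8.31 to 14.4 CPM in the insulin libraries. That of 8 vascular smooth muscle markers, 7 of them detected, was 3.44 to 6.20 and 3.07 to 4.98 CPM. Smtn was the highest of these in every library (2.15 to 3.46 CPM), and Myocd had 0 counts in all 6. For 6 mesothelial markers the sum was 10.6 to 28.9 and 10.95 to 25.3 CPM. The parts of these cells in the level of any single stellate cell transcript were not tested. In whole liver, fewer stellate cells and less RNA per cell cannot be told apart.

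**Figure D1:**
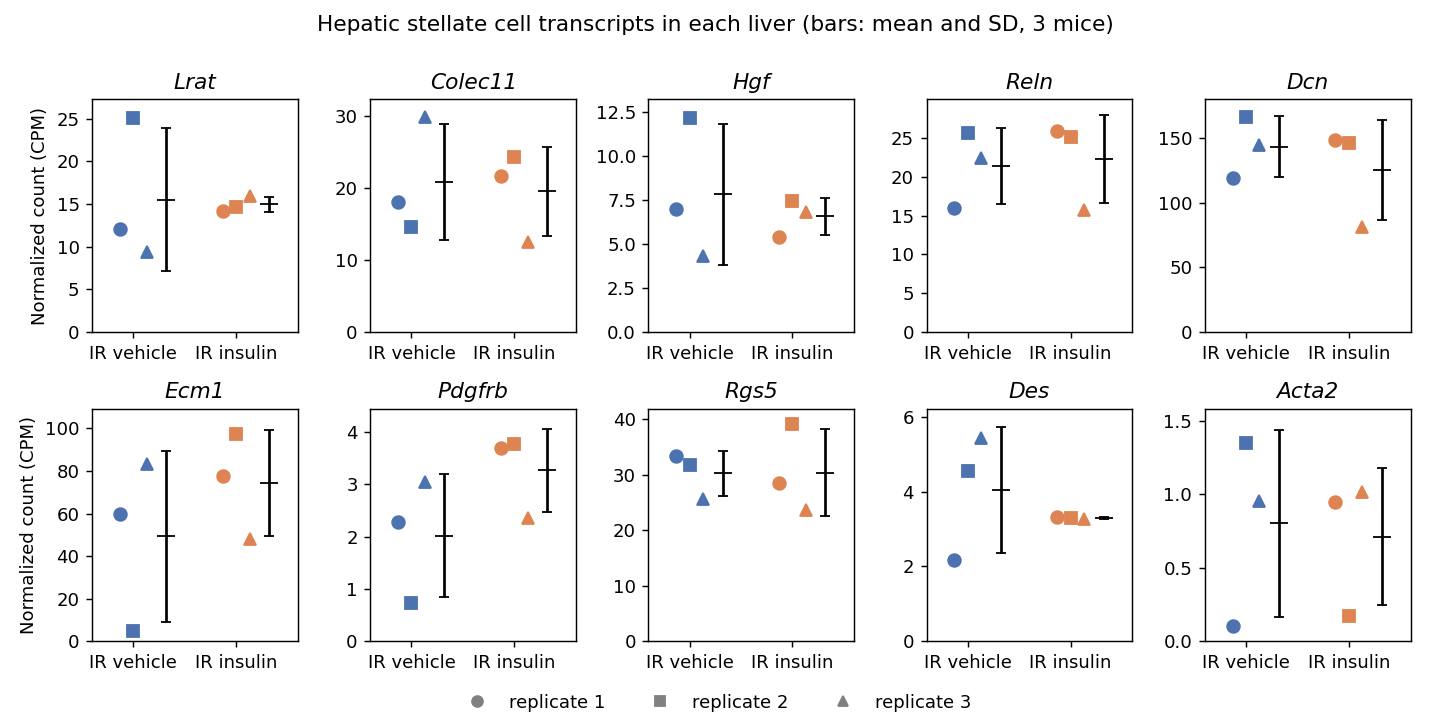
Normalized count (CPM, linear axis from 0, 1 scale per gene) of the 10 stellate cell transcripts in 3 IR vehicle livers (blue) and 3 IR insulin livers (orange). Symbols mark the replicate number and bars the mean and SD. The groups overlap for each gene, and vehicle replicate 2 (blue squares) is the highest library for Lrat and Hgf and the lowest for Ecm1 and Pdgfrb.

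Lrat encodes lecithin-retinol acyltransferase, the enzyme that esterifies retinol for storage and the most widely used marker of quiescent stellate cells. It lies on chromosome 3 (82892579 to 82903973, minus strand) and overlaps Rbm46os on the opposite strand. Vehicle replicates 1, 2 and 3 had 12.1, 25.0 and 9.35 CPM, and insulin replicates 1, 2 and 3 had 14.2, 14.7 and 16.0 CPM. The insulin livers were close together and lay inside the vehicle range, which was set by a high value in vehicle replicate 2. The means were 15.5 ± 8.38 and 14.9 ± 0.917 CPM (SD, n = 3), with a log2 fold change of −0.051 ± 0.37 (SE; edgeR, unadjusted p 0.893, adjusted p 0.974). Without vehicle replicate 2, both remaining vehicle values lay below all 3 insulin values, where the groups did not overlap for 19% of all genes. The log2 fold change was then 0.48 ± 0.18 (SE; edgeR, unadjusted p 0.0333, adjusted p 0.891), which passed the criteria of the study, as did 3.69% of all genes in that fit. The adjusted p ran from 0.630 to 0.9997 over the 14 alternatives. With an offset for GC content and all 6 libraries, the change was 0.28 ± 0.22 (unadjusted p 0.223).

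Among the secreted factors, Hgf encodes hepatocyte growth factor, the mesenchymal ligand that acts on hepatocytes through the receptor Met. The gene is on chromosome 5 (16553495 to 16620152, plus strand) and overlaps Gm43489 and Gm42975 on the same strand. In the vehicle livers it was at 6.98, 12.2 and 4.29 CPM, in the insulin livers at 5.40, 7.45 and 6.83 CPM. As for Lrat, the highest and the lowest of the 6 livers were vehicle replicates 2 and 3, and the insulin values lay between them. Its log2 fold change was −0.25 ± 0.39 (SE; edgeR, unadjusted p 0.547), and 0.22 without vehicle replicate 2 (unadjusted p 0.456).

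Colec11 encodes collectin-11, a soluble lectin that binds sugars on microbes and starts the lectin pathway of complement. The gene is on chromosome 12 (28594173 to 28623377, minus strand). Its levels were 18.1, 14.5 and 29.9 CPM (vehicle) against 21.6, 24.3 and 12.5 CPM (insulin). Here vehicle replicate 3 was highest and insulin replicate 3 lowest, and the means of 20.8 ± 8.01 and 19.5 ± 6.17 CPM differed by less than either SD. The log2 fold change was −0.096 ± 0.36 (SE; edgeR, unadjusted p 0.794). It was −0.29 without vehicle replicate 2, 0.26 without vehicle replicate 3 and 0.15 without insulin replicate 3.

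Reln encodes reelin, a large matrix glycoprotein that signals through the receptors Vldlr and Lrp8 and is best known from neuronal migration. It occupies chromosome 5 from 21884454 to 22344702 (minus strand), where other annotated genes overlap it on both strands. The vehicle livers had 16.0, 25.7 and 22.5 CPM of it, the insulin livers 25.9, 25.2 and 15.7 CPM. One liver of each group, vehicle replicate 1 and insulin replicate 3, was low, and the other 4 lay close together. The log2 fold change was 0.059 ± 0.29 (SE; edgeR, unadjusted p 0.842). It ranged from −0.11 without vehicle replicate 1 to 0.27 without insulin replicate 3.

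Of the matrix proteins, Dcn encodes decorin, a small leucine-rich proteoglycan that binds collagen fibrils and TGF-β. Its gene is on chromosome 10 (97479609 to 97518143, plus strand) and overlaps no other annotated gene. Vehicle livers had 119, 166 and 145 CPM and insulin livers 148, 146 and 81.0 CPM. Insulin replicate 3 was the lowest of the 6, while the other 2 insulin livers lay within the vehicle range. The means were 143 ± 23.7 and 125 ± 38.3 CPM (SD, n = 3), with a log2 fold change of −0.19 ± 0.29 (SE; edgeR, unadjusted p 0.530). Without insulin replicate 3 the change was 0.054. With 1756 to 3378 counts per library, Dcn had the most counts of the members, and its 95% interval for the log2 fold change ran from −0.87 to 0.49.

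Ecm1 encodes extracellular matrix protein 1, a secreted glycoprotein that restrains the activation of latent TGF-β and that hepatocytes also make. It lies on chromosome 3 (95734147 to 95739569, minus strand) and overlaps Mir7014 on the same strand. The vehicle livers had 60.0, 4.85 and 83.2 CPM and the insulin livers 77.8, 97.5 and 48.0 CPM. Vehicle replicate 2, with 79 counts against 1040 to 2251 in the other libraries, was the lowest by a wide margin. The other 5 livers overlapped. The means were 49.4 ± 40.3 and 74.4 ± 24.9 CPM (SD, n = 3), and the log2 fold change of 0.59 ± 0.79 (SE; edgeR, unadjusted p 0.478) fell to 0.062 without vehicle replicate 2 (unadjusted p 0.847).

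Pdgfrb encodes PDGF receptor-β, the receptor through which PDGF-B drives stellate cells to proliferate. It lies on chromosome 18 (61045150 to 61085061, plus strand). Vehicle livers gave 2.27, 0.737 and 3.05 CPM, insulin livers 3.69, 3.77 and 2.35 CPM, from 12 to 87 counts per library. Vehicle replicate 2 was the lowest and insulin replicates 1 and 2 were the highest. Of the members, Pdgfrb had the largest log2 fold change and the smallest p, at 0.68 ± 0.51 (SE; edgeR, unadjusted p 0.220, adjusted p 0.852). The change was 0.30 without vehicle replicate 2 (unadjusted p 0.39988) and 1.10 without vehicle replicate 3 (unadjusted p 0.0783), and the adjusted p ran from 0.527 to 0.9997 over the alternatives.

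Rgs5 encodes a regulator of G protein signalling that is typical of pericytes and dampens responses to vasoconstrictors. Its locus is on chromosome 1 (169655501 to 169695813, plus strand). It was at 33.4, 31.7 and 25.6 CPM in the vehicle livers, against 28.5, 39.1 and 23.7 CPM in the insulin livers. The insulin livers had both the highest and the lowest value, and the vehicle livers lay between them. The means were 30.3 ± 4.11 and 30.4 ± 7.90 CPM, and the log2 fold change was 0.0074 ± 0.26 (SE; edgeR, unadjusted p 0.978), with a 95% interval from −0.59 to 0.60. That interval was the narrowest among the 10 members.

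The cytoskeletal members are Des and Acta2. Des encodes desmin, the intermediate filament protein of muscle and of stellate cells. It lies on chromosome 1 (75360329 to 75368579, plus strand) and overlaps Gm15179 on the opposite strand. Vehicle livers had 2.17, 4.54 and 5.44 CPM and insulin livers 3.33, 3.29 and 3.27 CPM. The 3 insulin values were nearly equal (SD 0.0294 CPM) and lay inside the wider vehicle range. The log2 fold change was −0.30 ± 0.38 (SE; edgeR, unadjusted p 0.463). It was −0.59 without vehicle replicate 1 (edgeR, unadjusted p 0.0949), −0.020 without vehicle replicate 3 and 0.22 with voom.

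Acta2 encodes α-smooth muscle actin, which marks smooth muscle and activated stellate cells. The gene lies on chromosome 19 (34241090 to 34255590, minus strand). The counts were 2, 22 and 20 in the vehicle and 21, 4 and 22 in the insulin libraries, which came to 0.106, 1.35 and 0.954 CPM and to 0.946, 0.173 and 1.01 CPM. Each group had 1 liver with almost no counts and 2 livers at about 1 CPM. Its log2 fold change of −0.17 ± 0.89 (SE; edgeR, unadjusted p 0.853) had a 95% interval from −2.22 to 1.88, the widest of the members. It turned to 0.40 without vehicle replicate 2, to 0.30 without insulin replicate 2 and to 1.04 with voom, and was −0.69 without vehicle replicate 1. Actin genes have closely similar coding sequences, so reads of Acta2 can be shared with them.

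**Figure D2:**
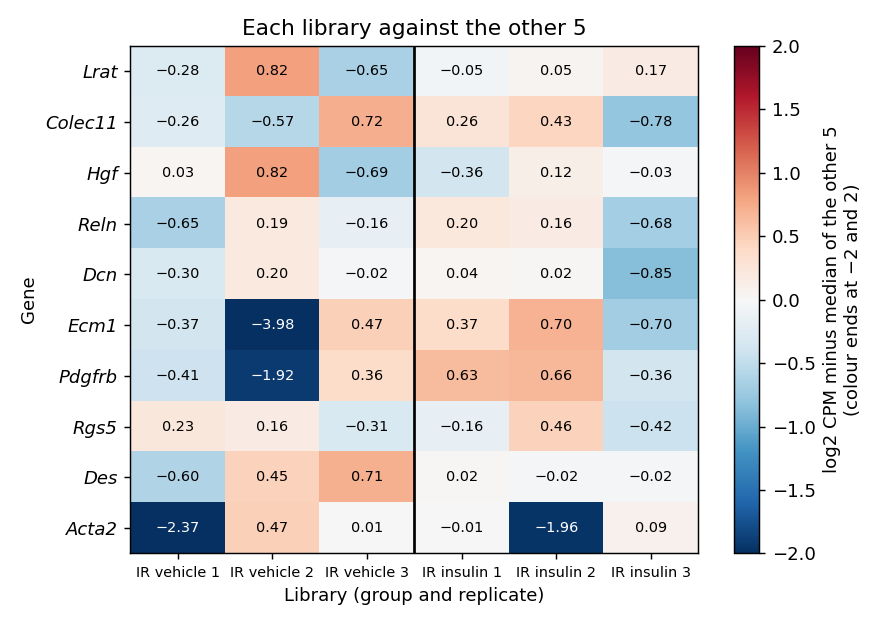
Deviation of each library from the median of the other 5 (log2 CPM, prior count 2) for the 10 stellate cell transcripts. Rows are genes and columns livers, with the value printed in each cell and colour ending at −2 and 2. Vehicle replicate 2 is high for Lrat and Hgf (0.82 each) and low for Ecm1 (−3.98) and Pdgfrb (−1.92).

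The members differed in which liver was highest or lowest. Vehicle replicate 2 was the highest library for 4 of the 10 (Lrat, Hgf, Dcn and Acta2) and the lowest for 2 (Ecm1 and Pdgfrb). Insulin replicate 3 was the lowest for 4 (Colec11, Reln, Dcn and Rgs5) and the highest for none. Likeness of profiles was measured as the root mean square difference of log2 CPM, centred on each gene's mean over the 6 libraries. The closest pairs were Reln with Dcn (0.17) and Lrat with Hgf (0.19). Ecm1 and Acta2 were the most unlike (2.21). These distances include vehicle replicate 2, where Lrat and Hgf deviated by 0.82 each and Ecm1 by −3.98. Likeness was not computed without it. The spread between mice, as a coefficient of variation, had a median over the members of 46.5% in the vehicle and 25.7% in the insulin group. It was larger in the vehicle group for 7 of 10 members, and for 11389 of all 13377 genes tested. The exceptions among the members were Reln, Dcn and Rgs5. Over all genes tested the medians were 36.2% and 12.8%. The lowest of the members was 0.891%, for Des with insulin, and the highest 81.6%, for Ecm1 with vehicle.

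In vehicle replicate 2 the members were spread along the GC content of their transcripts. Of the 4 members under 43% GC, Lrat and Hgf deviated by 0.82 each, close to the medians of 0.73 and 0.95 for tested genes within 1 point of the same GC content. Dcn and Rgs5 deviated by less (0.20 and 0.16) than genes of like GC content (0.70 and 0.85). Of the 4 members over 53% GC, Colec11 deviated by −0.57, beside −0.46 for genes of like GC content. Ecm1 (−3.98, beside −1.18) and Pdgfrb (−1.92, beside −0.68) were lower than such genes, and Des (0.45, beside −0.86) was higher. The Dcn, Hgf, Ecm1 and Des stretches printed above lie at both ends of this range. The part of base composition in the values of single members was not tested further.

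**Figure D3:**
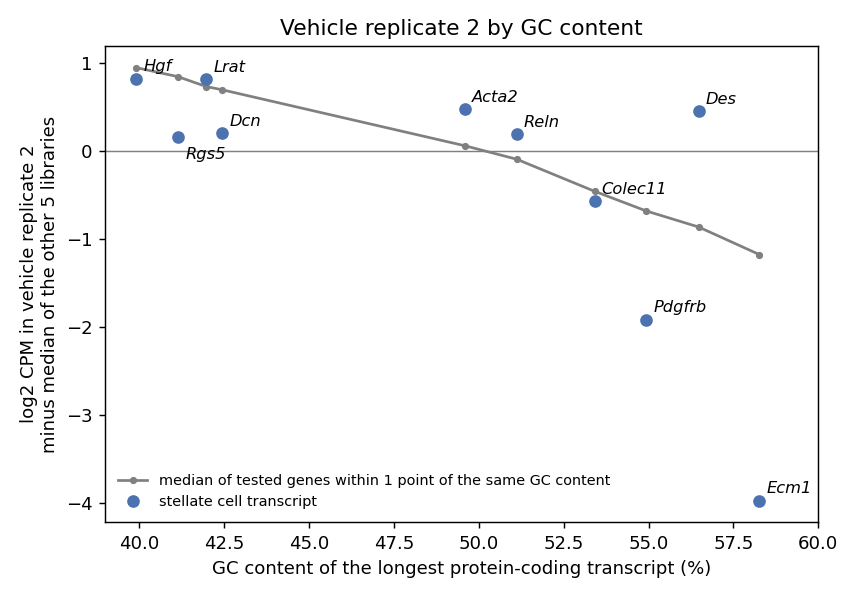
Log2 CPM of vehicle replicate 2 minus the median of the remaining 5 libraries (vertical axis) against the GC content of the longest protein-coding transcript (percent, horizontal axis) for the 10 stellate cell transcripts (points). The grey line joins the medians of all tested genes within 1 percentage point of each member's GC content. Ecm1 lies at −3.98, below the line at −1.18, and Des at 0.45, above it at −0.86.

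The genes outside the members with the most similar mean profile were Dlg3, Mthfsl, Man2a2, Fam133b and G6pdx, of 10651 genes with at least 50 normalized counts. Their root mean square difference from the mean centred profile of the 10 members was 0.043 to 0.088 on the log2 scale over 6 libraries. That mean profile was itself nearly flat, running from −0.28 in vehicle replicate 1 to 0.21 in insulin replicate 1.

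Genes of related pathways were counted in the same way, by edgeR with all 6 libraries unless another setting is named. Of 20 further genes of quiescent stellate cells 19 were tested, Gfap being too low, and 0 passed the criteria of the study in either direction, which 1.0% of all genes passed upwards and 1.86% downwards. The median log2 fold change was 0.18, with 12 higher and 7 lower. Among the genes with the smallest p were Bmp10 (log2 fold change 0.60) and Gdf2 (log2 fold change 0.37), ligands of the endothelial receptor ALK1. Bmp10 passed upwards with voom (0.74), with the GC offset (0.75) and without vehicle replicate 2 (0.86), and 1 gene of the list passed without vehicle replicate 3. Without vehicle replicate 2 the median was −0.060, and without vehicle replicate 3 it was 0.41.

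Of 17 tested genes of activated stellate cells and fibrosis, 1 passed upwards and 0 downwards, with a median of −0.25 (4 higher, 13 lower). The gene that passed was Timp1, an inhibitor of matrix metalloproteinases that several liver cell types make. It was at 4.12, 1.84 and 0.858 CPM in the vehicle and 8.60, 5.15 and 5.44 CPM in the insulin livers, without overlap. The log2 fold change was 1.49 ± 0.55 (SE; edgeR, unadjusted p 0.0267, adjusted p 0.852). It no longer passed without vehicle replicate 2 (1.37, unadjusted p 0.0576) or insulin replicate 1 (1.22, unadjusted p 0.0920), and the adjusted p ran from 0.473 to 0.9997 over the alternatives. Timp1 (chromosome X, 20870166 to 20874735, plus strand) overlaps Syn1 on the opposite strand, and counting was not stated to use strand. Vim (−0.59), for the filament protein vimentin, and Lox (−1.29), a collagen cross-linking enzyme, followed without passing. The median of these genes was 0.16 when vehicle replicate 3 was left out. Downwards, 2 of them passed without vehicle replicate 1 (Vim was 1 of these, at −0.87) and 1 without insulin replicate 1 (Lox, −3.27). In these fits 9.81% and 0.727% of all genes passed in either direction.

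Each pathway list from here on, except that of TGF-β signalling, includes the member or members that belong to it. Of 18 tested genes that handle retinol, Lrat among them, 10 were higher and 8 lower, and 0 passed (median 0.073, from −0.067 to 0.30 over the alternatives). Plin3 (0.58), a lipid droplet coat protein, Bco1 (0.48), which cleaves β-carotene, and Rbp4 (−0.43), the plasma carrier of retinol, had the smallest p. Without vehicle replicate 2, 2 of the 18 passed upwards (the member Lrat, at 0.48, and Bco1, at 0.58) and 1 downwards, and the median was −0.014. Without vehicle replicate 1, Plin3 passed upwards (0.86) and Rbp4 downwards (−0.65), and with the GC offset 1 gene passed downwards. Of 10 genes of PDGF signalling 0 passed (median 0.039, from −0.13 to 0.099; 5 higher and 5 lower). The ligands Pdgfd (−1.45, unadjusted p 0.0533) and Pdgfc (−0.88) preceded Pdgfrb. Pdgfd passed downwards with DESeq2 (−1.48), without the filter on low counts, without insulin replicate 1 (−2.26) and without vehicle replicate 1 (−1.78), where Pdgfc passed as well (−1.16). Among 9 tested genes of the HGF pathway 0 passed, with a median of 0.021 (−0.24 to 0.089). The receptor Met was at 66.3, 189 and 75.2 CPM in the vehicle and 56.8, 53.8 and 67.5 CPM in the insulin livers. Its highest value was in vehicle replicate 2, and its log2 fold change was −0.89 (edgeR, unadjusted p 0.0609). Met passed downwards with DESeq2 (−0.91, unadjusted p 0.0403), without the filter on low counts, and without vehicle replicate 1 (−1.15) or 3 (−1.11). It did not pass without vehicle replicate 2, without any 1 of the insulin libraries, with voom or with the GC offset. Over the alternatives its change ran from −1.15 to −0.25. Plau (−0.71), a protease that activates HGF, and the adaptor Grb2 (0.22) followed.

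Of 7 tested genes of reelin signalling 0 passed (median 0.059, the value of Reln itself, and −0.075 to 0.14 over the alternatives). The reelin receptor gene Lrp8 and the adaptor gene Dab1 were too low to test. The kinase gene Src (1.15, unadjusted p 0.0505), the adaptor gene Crk (−0.46) and Rapgef1 (0.26), an exchange factor downstream of Crk, had the smallest p. Src passed upwards with DESeq2 (1.14, unadjusted p 0.0394), with upper-quartile normalization, without the filter on low counts and without vehicle replicate 1 (1.80). For the lectin pathway of complement 0 of 11 passed (median 0.094, from −0.17 to 0.18), led by C2 (−0.63), Colec10 (−0.70), the partner of Colec11, and C4a (0.97), whose reads can be shared with its near-identical copy C4b. Without vehicle replicate 1, C4a passed upwards (2.37) and C2 downwards (−0.87), and C4a passed with the replicate block (1.53). TGF-β signalling had 0 of 17 (median −0.13, from −0.30 to 0.11), with the Smad corepressor gene Ski (0.37) and the receptor gene Tgfbr1 (−0.67) among the smallest p. In each of these alternatives 1 gene of this list passed upwards: without vehicle replicate 1, without the filter on low counts, and with the replicate block with or without the GC offset.

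Of 9 tested small leucine-rich proteoglycans, the family of decorin and with Dcn among them, 0 passed upwards and 1 downwards. The median was −0.19, the value of Dcn itself. Ogn, which encodes osteoglycin, was at 1.27, 3.93 and 2.91 CPM in the vehicle and 1.67, 0.693 and 0.692 CPM in the insulin livers, and the groups overlapped. The log2 fold change was −1.40 ± 0.56 (SE; edgeR, unadjusted p 0.0379, adjusted p 0.852). Ogn did not pass without vehicle replicate 2 or 3 (unadjusted p 0.107 and 0.0738) or without insulin replicate 2 or 3 (0.1197 and 0.119), nor with a GC offset (0.0798), the replicate block (0.0754) or voom (0.244). It overlaps Cenpp on the opposite strand. Omd (−0.77) and Ecm2 (−0.88) followed. Omd passed downwards without insulin replicate 1 (−1.09). Upwards, 2 genes of the list passed without vehicle replicate 3, where its median was 0.26, and 1 without insulin replicate 2 or without the filter.

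Contractile and filament genes had 0 of 15 past the criteria (median 0.053, from −0.15 to 0.23), and 4 of them passed upwards without vehicle replicate 2. Flna (0.56), for the actin cross-linker filamin A, and Myh9 (0.54), for non-muscle myosin, had the smallest p, before Vim. Both were among the 4 that passed without vehicle replicate 2, where 3.69% of all genes passed in either direction. Both also passed upwards with voom (0.57 and 0.54), and Flna passed with upper-quartile normalization (0.61). Without vehicle replicate 1, 1 gene passed downwards (Vim). Regulators of G protein signalling and vasoactive receptors had 0 of 13 (median −0.27, from −0.56 to 0.051), led by the mineralocorticoid receptor gene Nr3c2 (−0.72), Rgs16 (−1.66) and the adrenergic receptor gene Adra1a (0.44). Rgs16 was at 52.4 CPM in vehicle replicate 3 and at 0.430 to 10.1 CPM in the other 5 livers. Nr3c2 passed downwards without vehicle replicate 1 (−0.94), without insulin replicate 3 (−1.04) and with the replicate block and GC offset (−0.67), and Rgs16 without vehicle replicate 2 (−2.23). None of the genes in these lists had an adjusted p under 0.05 (edgeR).

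Markers of other liver cells were summed in the same libraries. For calls under other settings, the shares of all genes given before the pathway lists apply. The 10 sinusoidal endothelial markers came to 249.5 to 469.6 CPM in the vehicle and 265.3 to 288.8 CPM in the insulin livers, with 0 of 10 past the criteria (Kdr −0.65, Ptprb −0.73 and Lyve1 −0.42 had the smallest p). All 3 of these passed downwards without vehicle replicate 1, where 9.81% of all genes passed. Kdr passed without vehicle replicate 2 (3.69% of all genes) and with the GC offset (3.63%). Upwards, 1 marker passed without vehicle replicate 3 (6.51% of all genes). The 10 Kupffer cell markers came to 299.1 to 576.2 and 406.8 to 750.1 CPM, with 0 of 10 (Marco 1.51, Timd4 −0.39, Vsig4 −0.53), and Marco passed upwards without vehicle replicate 1 (3.39), with the replicate block (2.25; with the GC offset 1.96) and without the filter on low counts (1.53). For 6 bile duct markers, of which Cldn4 was at 0, the sums were 19.8 to 45.4 and 23.0 to 50.8 CPM, with 0 of 4 tested (Spp1 0.46, Sox9 0.41, Krt7 0.69), of which 1 passed upwards without vehicle replicate 1. The 8 hepatocyte markers came to 67287 to 157930 CPM in the vehicle and 55914 to 70803 CPM in the insulin livers, with the highest sum in vehicle replicate 2. Alb was at 138554 CPM there, against 48158 and 72891 CPM in vehicle replicates 1 and 3. By edgeR 1 of 8 passed downwards (Serpina1a −0.75, before Alb −0.89 and Ttr −0.48). By DESeq2 these 3 passed downwards, and without vehicle replicate 1 Serpina1a and Alb were among 3 that passed. The 6 erythroid markers came to 413.1 to 1587 and 311.7 to 478.1 CPM, with the highest sum in vehicle replicate 2. Of 5 tested, 4 passed downwards, among them Hbb-bt (−1.63), Hba-a1 (−1.30) and Hba-a2 (−3.20), and 0 passed without vehicle replicate 2, insulin replicate 1 or insulin replicate 3. Of 6 mesothelial markers 1 passed upwards (Msln 1.08, unadjusted p 0.0333, before Gpm6a −1.40 and Lrrn4 −0.58), and Msln did not pass without vehicle replicate 1 or 2 or without insulin replicate 1 or 3. Gpm6a passed downwards with DESeq2 (−1.42), without the filter and without vehicle replicate 1 or 3. It did not pass without vehicle replicate 2, its highest library (11.2 CPM), and its change ran from −1.76 to −0.44 over the alternatives. Lrrn4 passed upwards without vehicle replicate 2 (1.23). Serpina1a did not pass without vehicle replicate 2 or 3 or without any 1 of the insulin libraries. Among 7 tested portal fibroblast markers 0 passed (Fbln2 −1.39, Dpt −1.23, Cd34 −0.65), although 2 passed downwards without vehicle replicate 2 and 1 upwards without vehicle replicate 1. Of the smooth muscle and the pancreas and gut markers, where 5 of 8 of the latter were at 0, Smtn (0.25) and Cela1 (−0.15) were the ones high enough to test. The part of these cells in the levels of the stellate cell transcripts was not tested.

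**Figure D4:**
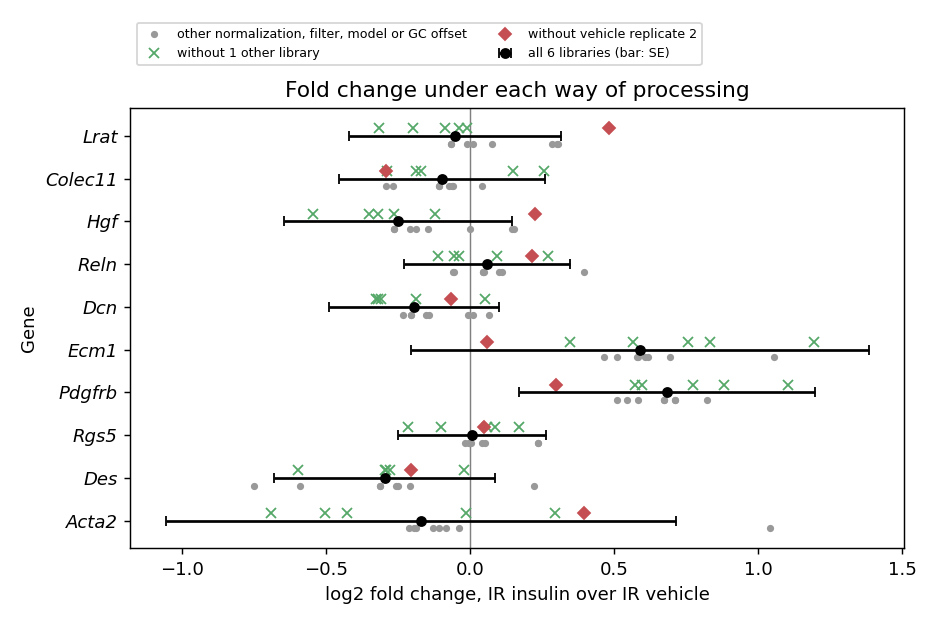
Log2 fold change of IR insulin over IR vehicle for the 10 stellate cell transcripts with all 6 libraries (black, bar: SE), without vehicle replicate 2 (red), without 1 other library (green) and with another normalization, filter, model or GC offset (grey). Ecm1 and Pdgfrb stay above 0 throughout, from 0.062 to 1.20 and from 0.30 to 1.10, and Lrat lies at 0.48 without vehicle replicate 2.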

How the data were processed

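Liver RNA of 6 mice was sequenced. According to the methods, the authors made NEBNext Ultra RNA libraries for an Illumina HiSeq, and reads were mapped with Bowtie 2 (version 2.2.3 per the submitters' processing notes) to mouse build 38 (mm10). The deposited table held raw read counts per Ensembl gene, neither normalized nor pooled. The counting program, annotation release and strand setting are not given in the sources used here, so counts of overlapping genes and of near-identical copies are uncertain. Bowtie 2 does not split reads over introns, so reads over exon junctions may be missing from the counts.

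Groups and replicate numbers came from the sample labels. Counts were compared with edgeR 4.0.16 (glmQLFit and glmQLFTest, R 4.3.3), with TMM normalization, no covariate and filterByExpr (minimum count 10, minimum total 15). P values were adjusted by Benjamini-Hochberg over 13377 genes, and SEs were derived from the F statistic. The method was tested on simulated counts. These had less spread than the data and no library with a GC trend, so the test does not show how the method performs with either. Precision was limited by 3 mice per group (edgeR's biological coefficient of variation was 0.357) at 18449986 to 21827619 counts per library. An exact permutation test of 3 against 3 cannot go below a two-sided p of 0.1 and was not used. Intervals of log2 fold changes are 95% intervals from the SE.

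Length, GC content and coordinates came from GENCODE M21 (GRCm38), using the longest protein-coding transcript. The 14 alternatives were RLE and upper-quartile normalization, no filter on low counts, DESeq2 1.42.0 (the authors also used DESeq2, in another version), voom with sample quality weights (limma 3.58.1), the replicate number as a block, a GC offset (loess, span 0.5), both of these together, and leaving out each library. Named are the members, the 3 genes with the smallest p of each list and the 5 genes nearest in profile. Some genes that this rule selects are not reported here. The members and lists were chosen with earlier results of these data known. Other genes were picked once their values were known.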

Additional observations from a re-analysis of the deposited data

How the results depend on the processing

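Over the 14 alternatives, no member and none of the 13377 genes reached an adjusted p under 0.05. The members past the study's criteria stayed at 0 except without vehicle replicate 2, where there was 1 (Lrat), so that leaving out 1 library gave 0 to 1. The members whose groups did not overlap numbered 0 to 2 when 1 library was left out: Des without vehicle replicate 1, Lrat without vehicle replicate 2, Pdgfrb without vehicle replicate 3, and Reln and Pdgfrb without insulin replicate 3, where 30.5%, 19.0%, 31.0% and 19.2% of all genes did not overlap. The genes past the criteria, 383 with all libraries, were 742 with no filter on low counts (more genes tested), 213 with voom, and 99 to 1349 when 1 library was left out.

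The sign of 8 of 10 members changed under at least 1 alternative, Ecm1 and Pdgfrb being the exceptions, and the cause was not tested. The changed values were, with RLE, −0.0038 for Rgs5; with upper-quartile normalization, 0.013 for Lrat; with DESeq2, −0.0037 for Rgs5. With voom they were 0.30 for Lrat, 0.042 for Colec11, 0.00075 for Hgf, 0.066 for Dcn, 0.22 for Des and 1.04 for Acta2. With a GC offset they were 0.28 for Lrat, 0.15 for Hgf, −0.057 for Reln and 0.012 for Dcn, and among other genes −0.45 for Smtn, −0.036 for Myh9, −0.079 for Rapgef1, −0.0018 for Ski, −0.099 for Man2a2 and −0.077 for G6pdx. Without 1 library, reversed values ran from −0.11 (without vehicle replicate 1) to −0.037 (without insulin replicate 2) for Reln, with −0.055 without insulin replicate 1. For Rgs5 they were −0.0999 without vehicle replicate 3 and −0.21 without insulin replicate 2. They were 0.48 for Lrat, 0.22 for Hgf and 0.40 for Acta2 without vehicle replicate 2, 0.26 and 0.15 for Colec11 without vehicle replicate 3 and insulin replicate 3, 0.30 for Acta2 without insulin replicate 2, and 0.054 for Dcn without insulin replicate 3. Of the 60 other named genes, 15 changed sign at least once. Besides those above, these were, with voom, Spp1 (−0.18), Krt7 (−0.19), Lrrn4 (1.08) and Fbln2 (0.048). Without 1 library they were Sox9 (−0.035), Dpt (0.54) and Rgs16 (0.73) without vehicle replicate 3, Lrrn4 (1.23) and Lox (0.40) without vehicle replicate 2, Fam133b (−0.087, −0.018 and −0.034) without vehicle replicate 1 and insulin replicates 1 and 2, and G6pdx (−0.010) without vehicle replicate 1.

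Leaving out 1 library gave lowest and highest log2 fold changes of −0.31 and 0.48 for Lrat, −0.29 and 0.26 for Colec11, −0.54 and 0.22 for Hgf, −0.11 and 0.27 for Reln, −0.32 and 0.054 for Dcn, −0.21 and 0.17 for Rgs5, −0.59 and −0.020 for Des and −0.69 and 0.40 for Acta2. Among other genes they were −0.035 and 0.74 for Sox9, −1.05 and 1.23 for Lrrn4, −1.71 and 0.54 for Dpt, −3.27 and 0.40 for Lox, −2.23 and 0.73 for Rgs16, and −0.087 and 0.16 for Fam133b.

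Same-numbered libraries of the 2 groups did not deviate together (Pearson's r of deviations from the group mean across genes −0.039, 0.069 and 0.017 for replicates 1, 2 and 3), so the numbers were not taken as pairs. With the replicate block, 321 genes passed the criteria, and 0 members. Lrat (0.076), Rgs5 (−0.015) and Lrrn4 (0.20) changed sign. With the replicate block and the GC offset, Lrat (0.31), Hgf (0.15), Reln (−0.054), Lrrn4 (0.058), Smtn (−0.33), Rapgef1 (−0.080), Man2a2 (−0.079) and G6pdx (−0.065) did.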
